A study of Mus musculus with 4 samples.

Results

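The glucocorticoid target genes described here are 7 genes that the hormone receptor is known to switch on in many tissues, namely Fkbp5, Tsc22d3, Ddit4, Sgk1, Fam107a, Zbtb16 and Errfi1, found by symbol among the 31053 genes of the count matrices. All 7 were present. Single-cell RNA sequencing was performed on brain vascular-associated cells (BVACs), which are cells enriched from brain digests with beads against CD31, a surface protein of endothelial cells (EC). Male wild-type C57BL/6 mice aged 12 to 14 weeks underwent chronic social defeat (CSD) or the home-cage condition (HC) for 14 days. Per the study's methods, a CSD mouse lived in the cage of an aggressive CD-1 mouse, behind a perforated partition that was removed for a daily confrontation. An HC mouse was also housed beside a CD-1 mouse, but the partition between them was never removed. Each group was sequenced as 2 libraries of 4 pooled mice each (CSD 1 and CSD 2, HC 1 and HC 2), so that n = 2 per group in every comparison, and a p-value measures the spread between such pools. The labels name no transgene and no drug in either group. Cerebellum, striatum, brainstem and olfactory bulbs had been removed, and the tissue went through enzyme digestion before the cells were captured.

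Glucocorticoids are adrenal steroids released during stress. They enter the cell, bind the glucocorticoid receptor (encoded by Nr3c1), which is held ready by Hsp90 and its co-chaperones, and the complex moves to the nucleus and binds DNA at glucocorticoid response elements. The genes switched on there include brakes on the response itself and on inflammation. Fkbp5 encodes a co-chaperone that lowers the receptor's affinity for the hormone, so it closes a feedback loop. Tsc22d3 encodes GILZ, a leucine zipper protein that restrains NF-kB and AP-1. Ddit4 encodes REDD1, an inhibitor of mTORC1 signalling, and Errfi1 encodes MIG6, an inhibitor of the EGF receptor. Sgk1 encodes a kinase that regulates ion channels and transporters. Fam107a encodes an actin-binding protein, and Zbtb16 encodes the zinc finger transcription factor PLZF. In the brain vasculature, glucocorticoids are known for tightening the barrier formed by EC.

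On the mouse build GRCm38 with GENCODE M21, Fkbp5 (ENSMUSG00000024222) lies on the minus strand of chromosome 17 at 28399094 to 28517527, and Tsc22d3 (ENSMUSG00000031431) on the minus strand of chromosome X at 140539528 to 140600659. Ddit4 (ENSMUSG00000020108) occupies chromosome 10 from 59949669 to 59951834 on the minus strand, and Sgk1 (ENSMUSG00000019970) the same chromosome from 21882184 to 21999903 on the plus strand. Fam107a (ENSMUSG00000021750) is at 8296274 to 8318023 on the minus strand of chromosome 14, Zbtb16 (ENSMUSG00000066687) at 48654297 to 48836222 on the minus strand of chromosome 9, and Errfi1 (ENSMUSG00000028967) at 150853919 to 150868892 on the plus strand of chromosome 4. All 7 are protein-coding. Errfi1 was the only 1 of the 7 that overlapped another gene of the count matrices, 1700045H11Rik on the opposite strand.

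The letters of a glucocorticoid response element were searched in the RefSeq promoters of build GRCm38.p6, windows of 300 bases from 250 before to 50 after an annotated start. RefSeq held 16 such windows for 6 of the 7 genes and none for Zbtb16. The element GNACANNNTGTNC, searched on both strands, was present in 3 of the 16 windows, from Sgk1 and Fam107a, against 156 of all 32851 windows (0.475%). The longer form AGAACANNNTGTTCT, which contains the first, was present in the Sgk1 window and in 3 windows overall. The hexamer AGAACA, which is an arm of the longer form, was present in 6 of the 16 windows, from Tsc22d3, Sgk1 and Fam107a, against 19.0% of all windows. Both windows with the element that start at different places are shown here from 5′ to 3′, with the letters of the element and of the hexamer in capitals, because they are the promoters of these genes in which the receptor's letters were found. The Sgk1 window is chr10:21993640-21993939 on the plus strand, with the element beginning 188 bases before the start, and the Fam107a window is chr14:8309730-8310029 on the minus strand, with the element beginning 118 bases before the start.
Sgk1: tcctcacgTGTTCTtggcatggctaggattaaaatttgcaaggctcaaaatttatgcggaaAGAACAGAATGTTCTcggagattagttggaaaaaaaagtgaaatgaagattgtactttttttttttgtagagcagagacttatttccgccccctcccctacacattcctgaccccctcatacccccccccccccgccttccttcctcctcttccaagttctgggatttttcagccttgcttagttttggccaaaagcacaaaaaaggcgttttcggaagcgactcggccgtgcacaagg
Fam107a: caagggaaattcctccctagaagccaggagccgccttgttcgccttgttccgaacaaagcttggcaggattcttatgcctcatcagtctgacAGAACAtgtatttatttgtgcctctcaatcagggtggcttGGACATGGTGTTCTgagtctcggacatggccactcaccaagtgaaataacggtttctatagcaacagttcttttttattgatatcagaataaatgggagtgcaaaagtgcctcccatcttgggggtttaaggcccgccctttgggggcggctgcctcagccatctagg
The other Fam107a window overlaps the printed one and holds the same element. A match is a description of these letters and was not linked to binding in these cells.

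After filtering, 14415 cells remained (2553 to 4934 per library), from 27297599 to 30361474 UMIs per library, where a UMI stands for 1 captured RNA molecule. Of these, 13251 (91.9%) were assigned to 16 classes by marker genes, among them 5172 EC. Microglia, the resident macrophages of brain tissue, made up 25.1% to 40.2% of a library and EC 30.01% to 46.2%. CSD 2 stood apart. Its gene totals differed from those of the other libraries by a chi-square per degree of freedom of 68.6 to 104, against 12.9 to 27.5 among the other 3 libraries, so values without it are given with the comparisons. These totals were summed over all classes, so they also follow the mix of classes and do not measure a difference within a class. Choroid plexus epithelial cells held 2266645 UMIs in CSD 2 against 7682313 to 9205509 in the other libraries. Libraries shared at most 9 cell barcodes. There were 12 classes with at least 10 cells in every library, 9 main classes and 3 groups of EC (capillary, arterial and venous), and these were compared between CSD and HC.

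The level of each gene was expressed in CPM, its UMI count scaled to the total of the class and pooled over the cells of a library, and levels are set side by side within a gene only. Classes differed in how much of each gene they held, and the leading class was not the same for all 7 genes. The mean level of Fkbp5 over the 4 libraries was 124 CPM in microglia (range 58.5 to 214) and 120 CPM in fibroblasts (49.4 to 306), and these ranges overlapped. It was 28.1 CPM in EC (14.1 to 47.2) and 2.76 CPM in choroid plexus epithelial cells (1.29 to 4.04), the secretory cells that make cerebrospinal fluid, whose range lay below that of arterial smooth muscle, the class next above it. In ependymal cells, the ciliated lining of the ventricles, 1 UMI of Fkbp5 was counted over the 4 libraries.

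Tsc22d3 was highest in EC, at 742 CPM (543 to 951), then in microglia at 463 CPM (325 to 662), with overlapping ranges. The next 6 classes lay between 176 and 395 CPM with ranges that overlapped their neighbours, and choroid plexus epithelial cells stood below all of them at 19.4 CPM (16.0 to 23.4). Ddit4 was also highest in EC, at 148 CPM (101 to 209), next to arterial smooth muscle at 98.0 CPM (74.1 to 118). It was lowest in choroid plexus epithelial cells at 6.07 CPM (5.40 to 7.06), and every pair of neighbours in its order had overlapping ranges. Zbtb16 was highest in EC, at 108 CPM (47.1 to 158), and lowest in choroid plexus epithelial cells at 0.645 CPM (0 to 1.43), again with neighbours that overlapped throughout.

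Sgk1 was highest in microglia, at 619 CPM (472 to 782). Choroid plexus epithelial cells, which were at or near the bottom for 5 of the other 6 genes, were second for Sgk1 at 445 CPM (343 to 578), and EC came next at 332 CPM (262 to 410). Fam107a was highest in astrocytes, at 385 CPM (261 to 582), a range that lay above that of EC (168 CPM, 108 to 247). Astrocytes stood between 13.8 and 72.2 CPM for Fkbp5 and between 8.63 and 68.8 CPM for Sgk1, so the astrocyte lead belonged to Fam107a and not to those other target genes. Errfi1 was at 426 CPM (70.0 to 1060) in fibroblasts and at 378 CPM (264 to 503) in arterial smooth muscle. The order of these 2 classes depended on how fibroblasts were defined, since with classes from clustering they held 209 and 380 CPM. Fkbp5 in fibroblasts was at 65.4 CPM with those classes. The smooth muscle range lay above that of microglia, the class next below, at 55.0 CPM (38.0 to 71.1), and EC held 24.8 CPM (18.4 to 32.4).

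**Figure D1:**
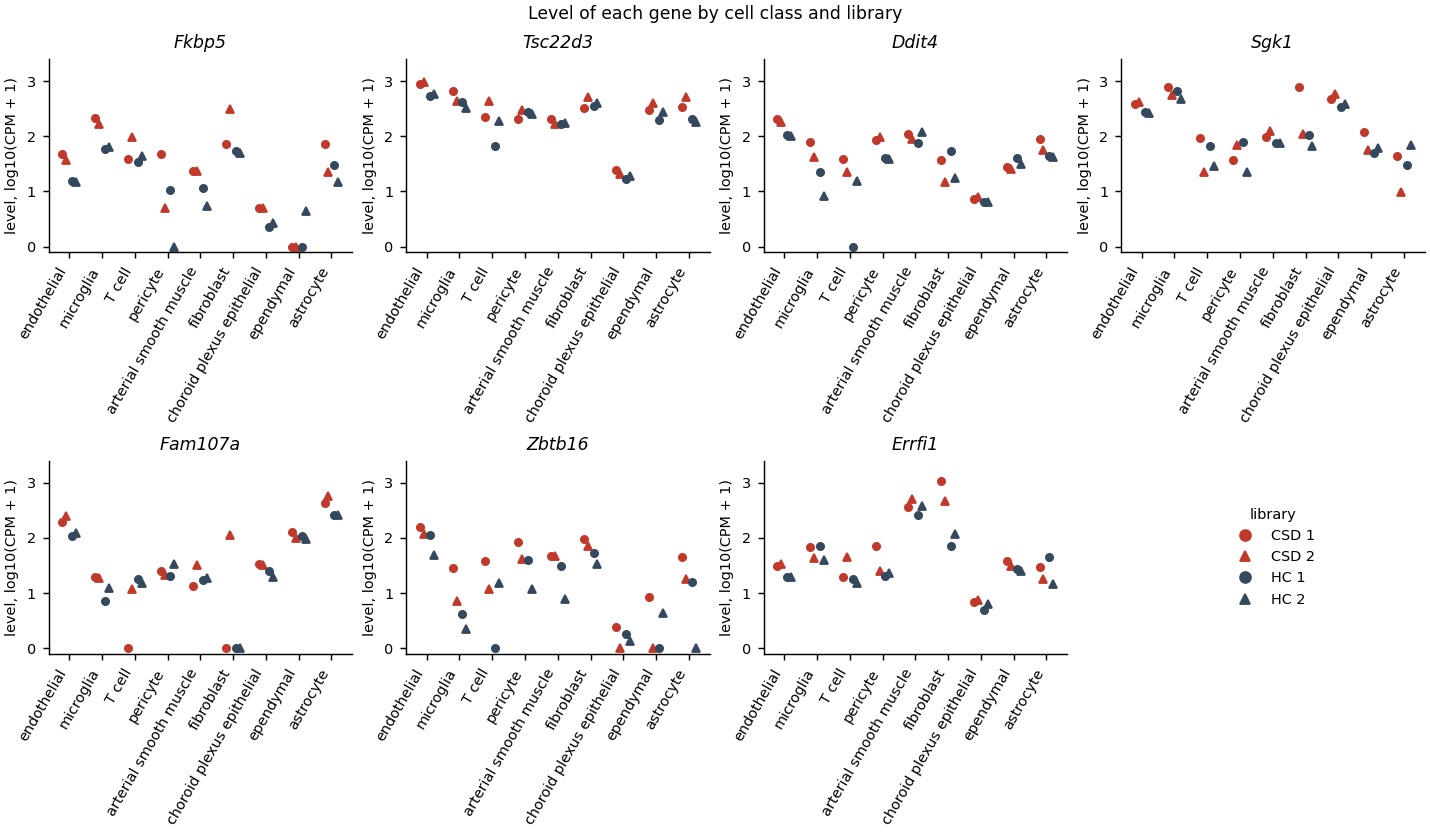
Level of each of the 7 genes in 9 cell classes, as log10(CPM + 1) with CPM taken per class and library. Each point is 1 library (red CSD, dark HC, circle library 1, triangle library 2). Fam107a stands highest in astrocytes and Errfi1 in arterial smooth muscle and, with these classes, in fibroblasts, and 5 of the 7 genes are lowest or next to lowest in choroid plexus epithelial cells.

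Whether these genes differed between CSD and HC was asked first in EC, the cells that line the vessels and meet the hormone in blood. All 7 genes were higher in both CSD libraries than in both HC libraries, while none passed edgeR's quasi-likelihood test after Benjamini-Hochberg adjustment over all 10475 genes tested in EC. Of all those genes, 19% had both CSD libraries above both HC libraries and 0.0382% were called higher. The values that follow are CPM after scaling with TMM, edgeR's normalization between libraries, with the log2 fold change of CSD over HC and its standard error (SE).

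Fkbp5, the receptor's co-chaperone, was counted at 49.4 and 37.0 CPM in CSD 1 and CSD 2 and at 14.6 and 13.8 CPM in HC 1 and HC 2. The libraries of the groups were far apart relative to their spread, with a log2 fold change of 1.6 (SE 0.23, n = 2, edgeR adjusted p = 0.126). Tsc22d3, encoding GILZ, was at 926 and 964 CPM in CSD against 541 and 576 CPM in HC, a log2 fold change of 0.76 (SE 0.14, edgeR adjusted p = 0.221). Ddit4, the mTORC1 inhibitor, was at 218 and 181 CPM in CSD against 103 and 98.7 CPM in HC, a log2 fold change of 0.98 (SE 0.16, edgeR adjusted p = 0.171). In each of these 3 genes the lower CSD library lay well above the higher HC library.

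Fam107a was at 206 and 250 CPM in CSD against 108 and 117 CPM in HC (log2 fold change 1.03, SE 0.16, edgeR adjusted p = 0.166). Sgk1 showed the smallest difference, with 397 and 415 CPM in CSD against 276 and 255 CPM in HC (log2 fold change 0.61, SE 0.14, edgeR adjusted p = 0.341). Errfi1 was at 31.0 and 32.8 CPM in CSD against 18.3 and 18.4 CPM in HC (log2 fold change 0.80, SE 0.19, edgeR adjusted p = 0.360). Zbtb16 was the exception in how closely the groups met. Its levels were 166 and 117 CPM in CSD against 112 and 45.9 CPM in HC, so that CSD 2 and HC 1 were almost level (log2 fold change 0.84, SE 0.37, edgeR adjusted p = 0.750), and its log2 fold change was 1.62 without HC 1 and 0.34 without HC 2.

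The unadjusted p was under 0.05 for 6 of the 7 genes in EC, Zbtb16 being the other, against 709 of the 10475 genes tested. DESeq2 called Tsc22d3, Ddit4 and Fam107a higher in CSD in EC (adjusted p = 0.00438, 0.00426 and 0.00177) and gave no adjusted p for Fkbp5 and Errfi1. Over all genes it called 50 in EC. With any 1 library left out, all 7 log2 fold changes in EC remained positive. They were 0.58 to 1.79 without CSD 2, 0.58 to 1.39 without CSD 1, and 0.34 to 1.64 without HC 1 or without HC 2. In these fits the spread comes from the group that keeps 2 libraries, so calls are not read from them here.

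Some other values moved with the groups in EC, and their part in the result was not tested. All 14 immediate-early and dissociation genes tested, which respond to handling of the cells, had positive log2 fold changes in EC (median 0.51, none called), as had 6 of 8 hypoxia-induced genes (median 0.52, none called). The summed level of the 9 oligodendrocyte markers in EC was 1393 and 1126 CPM in CSD against 784 and 787 CPM in HC, and Mal alone held 1386, 1113, 774 and 774 CPM of it, with Mog at 0.415 to 0.471 CPM. The summed level of 8 neutrophil markers was 9.44 and 4.16 CPM in CSD against 0.459 and 0.471 CPM in HC, with Ly6g, Camp and Ngp at 0. The summed level of the 8 venous EC markers was 919 and 1145 CPM in CSD against 733 and 555 CPM in HC, and that of the 9 choroid plexus markers 381 and 131 CPM in CSD against 391 and 525 CPM in HC. Summed astrocyte, microglia and pericyte markers overlapped between the groups in EC, as did the 12 markers of EC themselves, at 23553 to 28462 CPM.

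**Figure D2:**
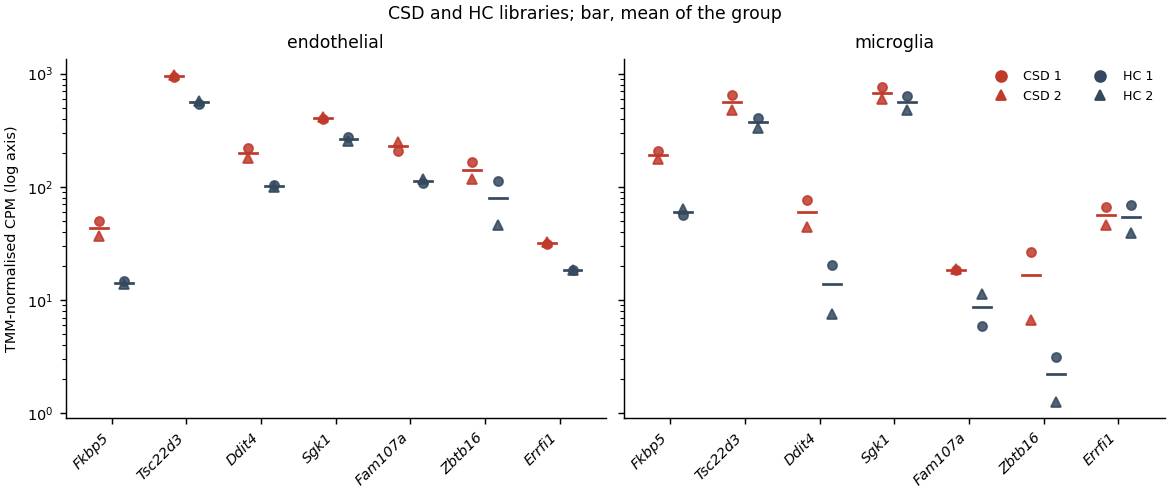
TMM-normalised CPM of the 7 genes in EC and in microglia on a log axis, 1 point per library (red CSD, dark HC), with the bar at the mean of the 2 libraries of a group. In EC the CSD points lie above the HC points for all 7 genes, and in microglia Sgk1 and Errfi1 overlap.

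The EC divide by position along the vessel into capillary, arterial and venous cells, and these groups carry different numbers of cells. Capillary EC, the largest group with 744 to 1465 cells per library, came closest to the threshold. Ddit4 in capillary EC was at 241 and 196 CPM in CSD against 110 and 102 CPM in HC, a log2 fold change of 1.04 (SE 0.17) with an edgeR adjusted p of 0.0527. Fam107a followed there with a log2 fold change of 0.98 (SE 0.17, edgeR adjusted p = 0.0593), Tsc22d3 with 0.73 (SE 0.14, 0.0894) and Fkbp5 with 1.43 (SE 0.29, 0.117). All 7 genes were higher in both CSD libraries (19.8% of the 9517 genes tested). All 7 had an unadjusted p under 0.05, as had 767 of the 9517 genes. None was called by edgeR in capillary EC (0.105% of genes called higher and 0.0105% lower). DESeq2 called Tsc22d3, Ddit4 and Fam107a there, and how many of all genes it called in capillary EC was not counted.

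Whether Ddit4 and Fam107a were called in capillary EC depended on settings. Their log2 fold changes were 0.88 to 1.22 and 0.82 to 1.11 over 15 alternative analyses of each. Those alternatives include the fits with 1 library left out. In these the log2 fold changes of the 7 genes in capillary EC were 0.51 to 1.47 without CSD 2 and 0.56 to 1.39 without CSD 1. They were 0.68 to 1.45 without HC 1 and 0.29 to 1.75 without HC 2.

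In arterial EC (24 to 80 cells per library) 5 of the 7 genes passed the filter on low counts, and 4 of them were higher in both CSD libraries (16.6% of 4012 genes). Fam107a was at 310 and 323 CPM in CSD against 131 and 159 CPM in HC (log2 fold change 1.13, SE 0.25, edgeR adjusted p = 0.197). Its log2 fold change was 1.15 without CSD 1, 1.12 without CSD 2, 0.98 without HC 1 and 1.27 without HC 2. Ddit4 did not separate the groups in arterial EC, with 191 and 99.0 CPM in CSD against 92.0 and 177 CPM in HC. In venous EC, of which only 12 to 28 cells per library were found, 6 genes passed the filter and 4 were higher in both CSD libraries (23.1% of 1305 genes). Of these 4, Fkbp5, Ddit4 and Fam107a passed the filter through their CSD libraries alone, which ties their sign to the filter. The level of Fkbp5 there was 285 and 208 CPM in CSD against 84.4 and 0 CPM in HC, the last with no UMI in 15 cells (log2 fold change 1.91, SE 0.74, edgeR adjusted p = 0.451). That value was 2.09 without CSD 2, 1.5 without HC 2 and 6.49 without HC 1, where the remaining HC library had no UMI, so its size there is no measure of the difference. The summed venous markers of this class were 7660 and 15164 CPM in CSD against 5091 and 4706 CPM in HC, and their part in the result was not tested. Zbtb16 in venous EC was the only pair of gene and class with a log2 fold change below 0, at -0.04 (SE 0.61), and it became positive in 6 of its alternatives.

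Microglia were the class with the largest number of cells besides EC, with 640 to 1641 per library. In microglia 5 of the 7 genes were higher in both CSD libraries, and none passed the test, with an edgeR adjusted p of 1 for all 7. Of the 9915 genes tested, 10.7% had both CSD libraries above both HC libraries and 0% were called, while 124 had an unadjusted p under 0.05, among them Fkbp5, Ddit4, Fam107a and Zbtb16.

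Fkbp5 in microglia was at 208 and 175 CPM in CSD against 56.5 and 63.2 CPM in HC, a log2 fold change of 1.68 (SE 0.24). The CSD libraries lay close together, as did the HC libraries. Ddit4 was at 76.0 and 43.8 CPM in CSD against 20.4 and 7.58 CPM in HC, a log2 fold change of 2.09 (SE 0.47). Here library 1 was higher than library 2 within each group. Zbtb16 was low in microglia, at 26.4 and 6.63 CPM in CSD against 3.14 and 1.26 CPM in HC, with a log2 fold change of 2.89 (SE 0.81) that rested on 3 to 88 UMIs per library and was 1.56 without CSD 1, 3.54 without CSD 2, 3.70 without HC 1 and 2.41 without HC 2. The same order of library 1 over library 2 appeared in it.

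Fam107a in microglia was at 18.3 and 18.8 CPM in CSD against 5.89 and 11.4 CPM in HC (log2 fold change 1.11, SE 0.36), and Tsc22d3 at 642 and 473 CPM against 409 and 331 CPM (log2 fold change 0.59, SE 0.29). The groups overlapped for Sgk1, at 758 and 599 CPM in CSD against 640 and 481 CPM in HC, and for Errfi1, at 66.1 and 46.0 CPM against 68.7 and 38.8 CPM. DESeq2 called Fkbp5 in microglia (adjusted p = 0.00734) and none of the other 6 genes. Without the filter on low counts edgeR called Fkbp5, Ddit4 and Zbtb16 (adjusted p = 0.000158, 8.93e-09 and 9.38e-07). With the replicate number as a block edgeR also called Fkbp5, Ddit4 and Zbtb16 (adjusted p = 0.00265, 0.00265 and 0.0449), though no label says that the numbers pair the libraries. With any single library left out, log2 fold changes were 1.55 to 1.79 for Fkbp5 and 1.57 to 2.99 for Ddit4. Errfi1 turned negative without CSD 1 and without HC 2. Of 14 immediate-early and dissociation genes in microglia 9 had positive log2 fold changes (median 0.12), and the summed endothelial markers in microglia were 142 and 114 CPM in CSD against 90.6 and 355 CPM in HC. Summed pericyte markers in microglia were 9.29 and 14.8 CPM in CSD against 26.4 and 52.4 CPM in HC, and their part in the result was not tested.

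Depth per cell differed between libraries, so the share of cells with at least 1 UMI was also taken at matched depth. With each cell thinned to 500 UMIs, Fkbp5 was seen in 9.93% and 7.50% of microglia in CSD 1 and CSD 2 against 2.51% and 2.42% in HC 1 and HC 2. Before thinning the shares were 32.5%, 45.6%, 13.9% and 10.6%, at median depths of 1905, 4966, 2707 and 1869 UMIs per cell. Zbtb16 overlapped in thinned microglia, at 1.22% and 0% in CSD against 0.11% and 0% in HC, as did Sgk1 and Errfi1. The thinned shares of Tsc22d3, Ddit4 and Fam107a in microglia were higher in both CSD libraries. Ddit4 was seen in 10.8% and 7.80% of thinned EC in CSD against 5.45% and 4.91% in HC, and Tsc22d3 in 35.5% and 34.3% against 25.03% and 23.6%. The thinned shares of Fkbp5, Sgk1, Fam107a and Zbtb16 in EC were also higher in both CSD libraries. That of Errfi1 overlapped, at 0.82% and 1.44% in CSD against 0.84% and 0.99% in HC. How often all other genes separate the groups in thinned cells was not counted. In choroid plexus epithelial cells, where these genes were low, the thinned share was at most 0.5% for Fkbp5, 1.11% for Ddit4 and 4.44% for Tsc22d3, at median depths of 11328 to 26148 UMIs per cell.

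In the remaining classes fewer genes could be tested, and none of those tested was called. In arterial smooth muscle all 7 were tested and 3 were higher in both CSD libraries (14.7% of 6451 genes). Fkbp5 there was at 23.3 and 23.7 CPM in CSD against 10.9 and 4.64 CPM in HC (log2 fold change 1.47, SE 0.53), and Zbtb16 at 47.8 and 47.3 CPM against 31.2 and 6.97 CPM (1.17, SE 0.43). Zbtb16 there depended on the HC libraries, with a log2 fold change of 2.74 without HC 1 (edgeR adjusted p = 0.025) and 0.61 without HC 2 (0.999), and 1.17 without CSD 2 (0.625). Fkbp5 was 1.46 without CSD 2, 2.28 without HC 1 and 1.1 without HC 2, with no call. Ddit4, in contrast to its level in EC, did not separate the groups in arterial smooth muscle, at 114 and 92.8 CPM in CSD against 78.0 and 123 CPM in HC. Errfi1, for which smooth muscle is a leading class, overlapped as well, at 375 and 517 CPM in CSD against 278 and 399 CPM in HC.

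In choroid plexus epithelial cells, which held 2266645 to 9205509 UMIs per library, 6 genes were tested and all 6 were higher in both CSD libraries (14.1% of 11549 genes tested, with 0.0606% called higher). Sgk1, the target gene with the highest level in this class, was at 469 and 584 CPM in CSD against 341 and 388 CPM in HC (log2 fold change 0.53, SE 0.17, edgeR adjusted p = 1). Fkbp5 was at 3.94 and 4.02 CPM in CSD against 1.28 and 1.78 CPM in HC, from 9 to 31 UMIs per library (log2 fold change 1.36, SE 0.43). Without CSD 2 these values were 0.37 for Sgk1 and 1.35 for Fkbp5. Summed EC markers in this class were also higher in both CSD libraries, at 279 and 279 CPM against 228 and 263 CPM in HC, as were capillary EC markers, at 61.3 and 84.7 CPM against 46.0 and 59.1 CPM, and their part in the result was not tested.

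Errfi1 in fibroblasts gave the largest log2 fold change of the pairs of gene and class that passed the filter. It passed through its CSD libraries alone, which ties the sign of its difference to the filter. It was at 1495 and 736 CPM in CSD against 96.2 and 172 CPM in HC, a log2 fold change of 3.04 (SE 0.56, edgeR adjusted p = 0.242), from 10 to 28 cells and 4 to 89 UMIs per library, and 19.7% of the 1093 genes tested in fibroblasts had both CSD libraries above both HC libraries. DESeq2 gave an adjusted p of 0.0168 for it. Its log2 fold change was 2.36 without CSD 1, 3.38 without CSD 2, 2.64 without HC 1 and 3.44 without HC 2. The summed fibroblast markers were 8657 and 4647 CPM in CSD against 9328 and 15131 CPM in HC, so the level of the class's own markers moved the other way. Summed EC markers in fibroblasts were 1381 and 1586 CPM in CSD against 910 and 1153 CPM in HC. The part of either in the result was not tested. Fkbp5 in fibroblasts, which did not pass the filter, had 6, 22, 3 and 3 UMIs in CSD 1, CSD 2, HC 1 and HC 2, so CSD 2 carried most of its level there, and the 8 UMIs of Fam107a were all in CSD 2.

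T cells (18 to 46 per library) allowed a test of Tsc22d3 only. Its level was 298 and 614 CPM in CSD against 88.9 and 240 CPM in HC (log2 fold change 1.47, SE 0.54, edgeR adjusted p = 0.872), with both CSD libraries higher (17.1% of 835 genes), from 4 to 40 UMIs. Each library decided its size, with a log2 fold change of 1.89 without CSD 1, 0.79 without CSD 2, 0.97 without HC 1 and 2.41 without HC 2. Among pericytes, the contractile cells of the capillary wall, Ddit4 was at 105 and 115 CPM in CSD against 46.1 and 47.3 CPM in HC (log2 fold change 1.24, SE 0.46), and it was the only 1 of 3 genes tested there that separated the groups (17% of 2736 genes). Ddit4 did not pass the filter in pericytes without CSD 2 or without HC 2. Summed EC markers in pericytes were 2004 and 1810 CPM in CSD against 1131 and 1565 CPM in HC, and their part in the result was not tested. Tsc22d3 in pericytes had a log2 fold change of 0.03 (SE 0.26) and of -0.30 without CSD 2.

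In astrocytes both genes tested, Fam107a and Tsc22d3, were higher in both CSD libraries (11.2% of 979 genes), with log2 fold changes of 0.90 (SE 0.64) and 1.08 (SE 0.64). Fam107a in astrocytes was at 657 and 818 CPM in CSD against 424 and 370 CPM in HC. Without CSD 2 the values were 0.72 for Fam107a and 0.78 for Tsc22d3. The astrocyte markers themselves summed to 13606 and 18699 CPM in CSD against 13052 and 13216 CPM in HC, and capillary EC markers in astrocytes to 361 and 397 CPM against 219 and 248 CPM. Their part in the result was not tested. Fos, an immediate-early gene, fell in astrocytes by 2.85 on the log2 scale (SE 0.65, edgeR adjusted p = 0.0133), where 0.204% of genes were called lower and 8.17% had both CSD libraries below both HC libraries, and the 7 genes of its list tested there all had negative values. In ependymal cells Tsc22d3 was the only 1 of 3 tested that separated the groups (15.4% of 5181 genes), at 329 and 438 CPM in CSD against 215 and 301 CPM in HC, with a log2 fold change of 0.60 (SE 0.26) that was 0.38 without CSD 2 and 0.35 without HC 1.

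**Figure D3:**
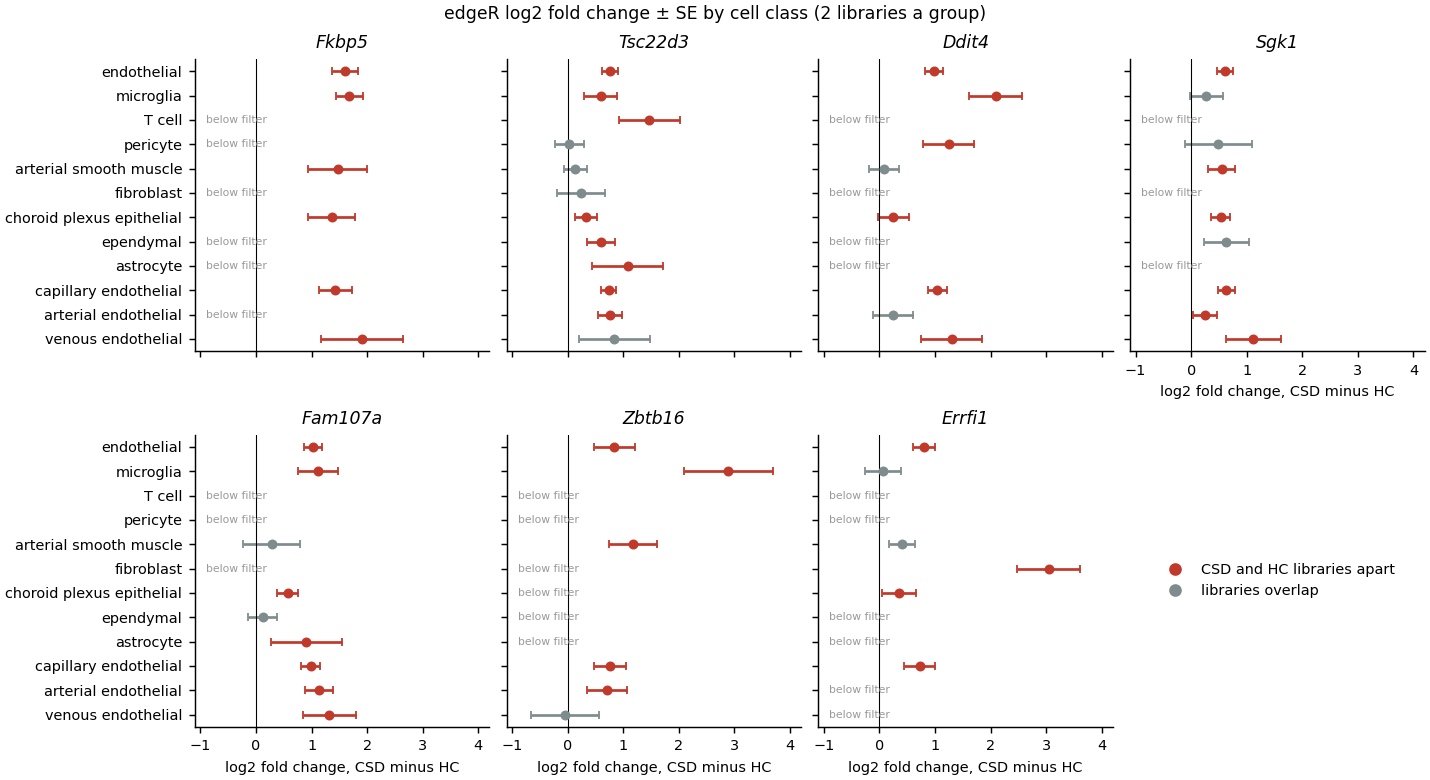
Log2 fold change of CSD over HC with its SE (bars) for each gene in the 12 classes compared, n = 2 libraries per group. Red points have both CSD libraries above both HC libraries, grey points overlap, and a gene that did not pass the filter on low counts is marked as such. Of the 56 points, which leave out the pairs below the filter, 55 lie above 0 and none has an adjusted p under 0.05.

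Counted over the 9 main classes, 38 pairs of gene and class passed the filter. All 38 had log2 fold changes above 0, 27 had both CSD libraries above both HC libraries and 20 had an unadjusted p under 0.05. By class, 10.7% to 19.7% of all genes tested had both CSD libraries above both HC libraries. The share with an unadjusted p under 0.05 ran from 124 of 9915 genes in microglia to 101 of 1093 in fibroblasts. A pair can pass the filter through 1 group alone, which ties its sign to the filter. Fkbp5 in arterial smooth muscle, for example, had 18 and 13 UMIs in CSD against 7 and 2 in HC. Errfi1 in fibroblasts, Zbtb16 in microglia and Ddit4 in pericytes also passed through CSD alone. Among the EC groups the same held for Fkbp5, Ddit4 and Fam107a in venous EC. edgeR called none of the 38 pairs, nor any of the 18 pairs in the EC groups, and DESeq2 called 8 pairs over the 12 classes (3 in EC, 3 in capillary EC, 1 in microglia and 1 in fibroblasts). Over all genes, DESeq2 called 50 in EC and 1 in microglia, and its calls in capillary EC and fibroblasts were not counted. The classes share the same 4 libraries, so the pairs are not independent of each other. Among pairs below the filter whose groups did not overlap, most were higher in CSD. The ones lower in CSD were Ddit4 in ependymal cells (mean 25.3 CPM in CSD against 35.2 CPM in HC) and Errfi1 in arterial EC (18.8 against 36.7 CPM). Fam107a in T cells was lower too (5.40 against 15.5 CPM), with at most 1 UMI per library. Zbtb16 averaged 82.4 CPM in CSD against 42.7 CPM in HC in fibroblasts, and 62.0 against 24.9 CPM in pericytes. The others higher in both CSD libraries were Fkbp5 and Sgk1 in fibroblasts, Fkbp5 in arterial EC, and Ddit4 and Zbtb16 in astrocytes. Ddit4 in T cells and Errfi1 in T cells, pericytes and ependymal cells were also higher. These pairs have few UMIs, and the share of all genes below the filter that separated this way was not counted. Fkbp5 had log2 fold changes of 1.36 to 1.68 in the 4 main classes where it passed the filter, and of 1.91 in venous EC. Below the filter, its levels overlapped between the groups in T cells, pericytes, astrocytes and ependymal cells. Tsc22d3, the only gene tested in all 9 classes, ranged from 0.03 in pericytes to 1.47 in T cells. Ddit4 ranged from 0.08 in arterial smooth muscle to 2.09 in microglia, and Sgk1 from 0.28 in microglia to 0.63 in ependymal cells.

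Whether the CSD effect itself differed between EC and another class was tested with an interaction of class and condition, for the 31 pairs in which a gene passed the filter in both. None passed the threshold (smallest edgeR adjusted p = 0.129), and 8 had an unadjusted p under 0.05. The share of all genes with such an unadjusted p was not counted for the interaction, so the 8 are not read as a result. The log2 difference from EC was 2.20 (SE 0.63) for Errfi1 in fibroblasts, the pair with that smallest adjusted p. For Ddit4 it was -0.89 (SE 0.26, edgeR adjusted p = 0.577) in arterial smooth muscle and 1.13 (SE 0.40, edgeR adjusted p = 1) in microglia. For Fam107a in ependymal cells it was -0.97 (SE 0.34, edgeR adjusted p = 0.612), and for Zbtb16 in microglia 1.95 (SE 0.56, edgeR adjusted p = 1). Without CSD 2, that difference for Zbtb16 was 2.47. The difference for Fkbp5 between microglia and EC was 0.09 (SE 0.34). Genes called in the same tests made up 0.0287% in arterial smooth muscle, 0.241% in fibroblasts, 0.0522% in ependymal cells and 0% in microglia.

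The level of the receptor itself was compared in the same way. Nr3c1 in EC was at 203 and 217 CPM in CSD against 239 and 232 CPM in HC, slightly lower in both CSD libraries, with a log2 fold change of -0.17 (SE 0.14, edgeR adjusted p = 0.865). In microglia its log2 fold change was -0.05 (SE 0.24). In ependymal cells Nr3c1 was higher in both CSD libraries, at 44.7 and 59.2 CPM against 30.8 and 26.7 CPM in HC (log2 fold change 0.84, SE 0.39, edgeR adjusted p = 1). It passed the filter there through its CSD libraries alone, which ties its sign to the filter. Of all genes tested in ependymal cells, 15.4% had both CSD libraries above both HC libraries. Nr3c1 was highest in EC, at 222 CPM (193 to 241 over the 4 libraries), and lowest in choroid plexus epithelial cells, at 29.1 CPM (25.9 to 31.8), where Tsc22d3, Ddit4, Zbtb16 and Errfi1 were lowest too. Nr3c2, the mineralocorticoid receptor that binds the same hormone, was at 18.8 CPM in EC, with a log2 fold change of -0.09 (SE 0.26). Hsd11b1, the enzyme that regenerates the active hormone, was at 95.3 CPM in fibroblasts and 1.90 CPM in EC and passed the filter in none of the 12 classes. Fkbp4, the co-chaperone that Fkbp5 competes with, had a log2 fold change of 0.35 in EC (SE 0.14, edgeR adjusted p = 0.710).

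Other genes known to be induced by glucocorticoids were taken from a list of 24. It was written by hand with earlier results of these data known, so it is no independent check on the 7 genes. In EC 22 of these genes were tested, and 2 were called higher, where 0.0382% of all genes tested were called higher. All 22 had positive log2 fold changes, with a median of 0.65 against 0.0055 over all genes tested and 0.84 over the 7 target genes. Lcn2, an iron-siderophore binding protein of the acute phase, rose from 2.74 and 1.38 CPM in HC to 68.8 and 102 CPM in CSD (log2 fold change 5.34, SE 0.37, edgeR adjusted p = 0.0109). It passed the filter through its CSD libraries alone, which ties the sign of its difference to the filter. Lcn2 also led the genes of the cluster named venous EC. Summed venous EC markers in EC were higher in both CSD libraries, and their part in this call was not tested. Cdkn1a, a cell cycle inhibitor, rose from 230 and 248 CPM to 642 and 720 CPM (log2 fold change 1.51, SE 0.15, edgeR adjusted p = 0.0428). Cdkn1a rose in capillary EC as well (log2 fold change 1.56, edgeR adjusted p = 0.00555), with the kinase gene Map3k6 (1.38, edgeR adjusted p = 0.0369). In capillary EC 0.105% of all genes tested were called higher. In microglia 14 of the 18 tested were positive, with a median of 0.21 against 1.11 over the 7 target genes, and none was called.

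The list of receptor machinery (chaperones and co-regulators) had 9 of 12 genes positive in EC (median 0.25) and 9 of 12 in microglia (median 0.11), with none called. In choroid plexus epithelial cells 13 of 14 immediate-early and dissociation genes were positive (median 0.22), and among them Hspa1b, a heat shock gene nearly identical to Hspa1a and therefore uncertain, was called higher (log2 fold change 1.16, SE 0.21, edgeR adjusted p = 0.0357). Clock genes, several of which respond to glucocorticoids as well, had 6 of 9 positive values in EC (median 0.12) and 3 of 9 in microglia (median -0.19). The list of the integrated stress response had 6 of 8 positive values in EC (median 0.17) and 3 of 6 in microglia (median 0.06).

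**Figure D4:**
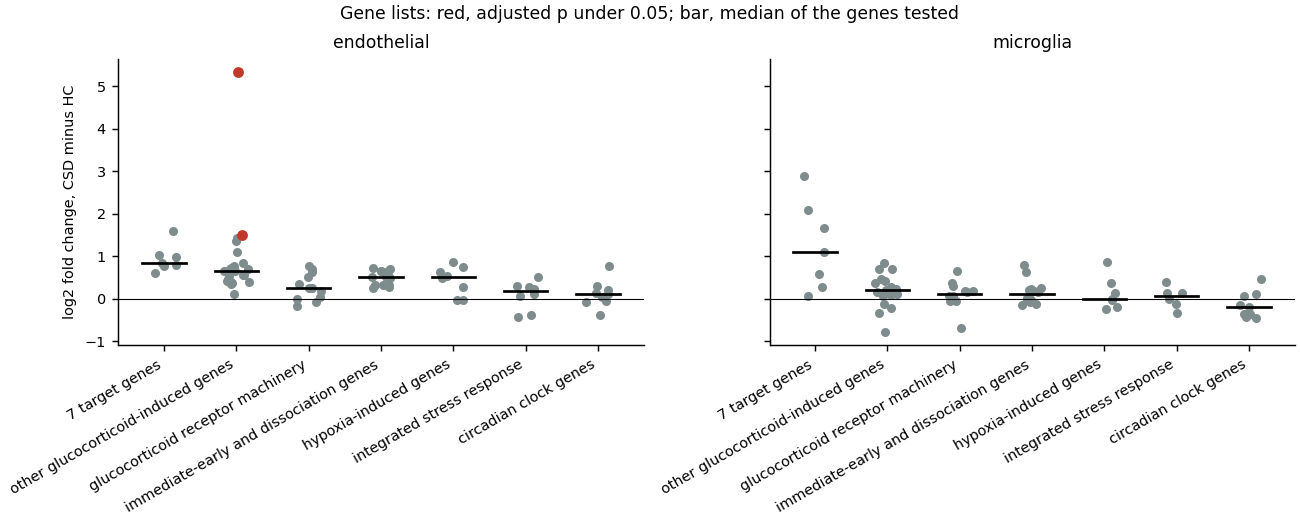
Log2 fold change of CSD over HC for the genes tested in each list, in EC and microglia, with a bar at the median (0.84 and 1.11 for the 7 target genes). Red points have an edgeR adjusted p under 0.05, which Lcn2 and Cdkn1a reached in EC.

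RNA outside the cells carried the same genes. Free RNA was read from the barcodes that had 100 UMIs or fewer. There Fkbp5 was at 26.96 and 25.1 CPM in CSD 1 and CSD 2 against 12.7 and 11.6 CPM in HC 1 and HC 2. Tsc22d3 was at 178 and 214 CPM against 108 and 126 CPM, and Ddit4, Fam107a and Zbtb16 were higher in both CSD libraries too, while Sgk1 and Errfi1 overlapped. The share of all genes that separated the groups in free RNA was not counted, so these are values only. The free RNA expected within EC was a small part of the level. For Fkbp5 it came to 1.18 and 1.52 CPM of the 47.2 and 36.6 CPM measured in EC of CSD. After the free RNA expected was subtracted, the log2 fold changes in EC were 0.62 to 1.61. No such subtraction was made in choroid plexus epithelial cells.

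The genes whose levels over the 9 classes were most like those of each target gene were found by Pearson's r of the mean log2(CPM + 10), among 7200 genes. With 9 points that share 4 libraries, these values are descriptions. Fam107a was most like Fam181b (r = 0.989), which was highest in astrocytes as well, and Ddit4 most like Map4 (r = 0.962). Tsc22d3 was most like Fam3c (r = 0.957), Errfi1 most like Lpl (r = 0.951), which encodes lipoprotein lipase, and Zbtb16 most like Fn1 (r = 0.944), which encodes fibronectin. Fkbp5 was most like Sipa1l1 (r = 0.899) and Sgk1 most like Herpud1 (r = 0.883). Among the target genes themselves the highest r was 0.718, between Ddit4 and Zbtb16, and the lowest was -0.385, between Fam107a and Errfi1.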

How the data were processed

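Per the labels and the study's methods, each of the 4 libraries was made with 10x 3′ chemistry from pooled cells of 4 mice, and reads were counted with Cell Ranger against GRCm38/mm10 (version 4.0 in the submitters' processing notes, with 3.1.0 in the matrix header). The authors deposited raw UMI counts for every barcode, with no cell calling. Barcodes with at least 500 UMIs, at least 250 genes and at most 25% mitochondrial UMIs were kept as cells. Cells were assigned to a class by its markers, with at least 3 distinct markers detected, at least 3 marker UMIs above free RNA and at least 2 times the next class. Doublets were left in the main values (Scrublet marked 4, 11, 35 and 73 cells in CSD 1, CSD 2, HC 1 and HC 2). UMIs were summed per class and library, so that libraries and not cells were the replicates, and edgeR 4.0.16 in R 4.3.3 (filterByExpr, TMM, two-sided quasi-likelihood test, Benjamini-Hochberg adjustment over all genes of the class, threshold 0.05) compared 2 CSD with 2 HC libraries in classes with at least 10 cells in each library. The difference between classes was an interaction term with the library as a block. Zero or low counts carry counting error only in any limit given. DESeq2 1.42.0, other size factors, filters, classes by clustering (scanpy 1.11.5), removal of doublets or free RNA, and each library left out were alternatives. The scripts were tested on simulated counts. All 7 genes were named in every class, with Nr3c1, Nr3c2, Hsd11b1 and Fkbp4, up to 3 called genes per class from each list and the genes most alike in level. The 7 genes and all lists were chosen with earlier results of these data known. Whether replicate numbers pair libraries was not given by the labels.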

Additional observations from a re-analysis of the deposited data

How the results depend on the processing

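None of the 56 pairs of gene and class passed the test in the main analysis, and how many passed depended on the settings. These counts include pairs that passed the filter on low counts only under the alternative. The number called higher in CSD was 11 with all genes of at least 1 UMI, 8 with DESeq2, 1 with at most 10% mitochondrial UMIs, 1 without marked doublets, 2 with classes from clustering, and 2 to 17 with 1 library left out (17 without CSD 1, 13 without CSD 2, 3 without HC 1 and 2 without HC 2). Of these, 10 with all genes of at least 1 UMI, 16 without CSD 1 and 12 without CSD 2 were among the 56 pairs, and the other in each case was in fibroblasts (Sgk1, Fkbp5 and Sgk1, with log2 fold changes of 2.40, 2.62 and 3.09). It was 0 with RLE size factors, class totals only (chosen after seeing the data), at least 1000 UMIs per cell, the complexity filter or the free RNA subtracted, and none was called lower in any setting. Of 805 fold changes of the 56 pairs under alternatives, 25 were negative and 66 were called. Over all genes, 4 were called in EC in the main analysis, against 0 with all genes of at least 1 UMI, 50 with DESeq2, 7 with classes from clustering and 4 to 545 with 1 library left out. In microglia 0 were called in the main analysis, against 22 with all genes of at least 1 UMI, 1 with DESeq2 and 0 to 4 with 1 library left out. The cause was not tested.

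With the replicate number as a block, 11 pairs were called higher, with 23 genes called in EC and 8 in microglia. The pairs were Fkbp5 and Fam107a in EC (adjusted p = 0.0395 and 0.0475), Fkbp5, Ddit4 and Zbtb16 in microglia (0.00265, 0.00265 and 0.0449), Fkbp5, Tsc22d3, Ddit4 and Fam107a in capillary EC and Tsc22d3 and Fam107a in arterial EC. Across the genes of a class, the difference between CSD 1 and CSD 2 correlated with that between HC 1 and HC 2. Pearson's r was 0.117 in EC, 0.558 in microglia and 0.022 to 0.263 in the other classes. There were only 2 pairs of libraries and no label pairs them, so the number was not treated as a pairing.

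These fold changes changed sign, none of them called. Tsc22d3 in pericytes was -0.0078 with DESeq2 and -0.11 with at least 1000 UMIs per cell, and Sgk1 in pericytes -0.47 with classes from clustering. In arterial smooth muscle Tsc22d3 was -0.015 with at most 10% mitochondrial UMIs and Fam107a -0.095 with classes from clustering. Zbtb16 in venous EC was 0.088 with all genes of at least 1 UMI, 0.19 with the replicate block, 0.021 with DESeq2 and 0.058 with classes from clustering. With 1 library left out, log2 fold changes ran from -0.41 to 0.75 for Ddit4 in arterial EC, from -0.24 to 0.42 for Ddit4, -0.46 to 0.87 for Fam107a and -0.069 to 0.29 for Tsc22d3 in arterial smooth muscle, from -0.28 to 0.54 for Errfi1 in microglia, from -0.075 to 0.28 for Fam107a and -0.018 to 1.12 for Sgk1 in ependymal cells, from -0.31 to 0.54 for Tsc22d3 in fibroblasts, from -0.30 to 0.19 for Tsc22d3 in pericytes, and from -0.37 to 2.03 for Tsc22d3 and -1.05 to 0.73 for Zbtb16 in venous EC. Differences from the effect in EC ran from -0.080 to 0.51 for Ddit4 in pericytes, -0.14 to 0.17 for Fam107a in astrocytes, -0.25 to 0.59 for Fam107a in microglia, -0.48 to 0.69 for Fkbp5 in arterial smooth muscle, -0.53 to 0.0051 for Fkbp5 in choroid plexus epithelial cells, -0.037 to 0.22 for Fkbp5 in microglia, -0.19 to 0.13 for Sgk1 in arterial smooth muscle, -0.23 to 0.048 for Sgk1 in choroid plexus epithelial cells, -0.70 to 0.47 for Sgk1 in ependymal cells, -0.91 to 0.71 for Sgk1 in pericytes and -0.40 to 0.052 for Tsc22d3 in microglia.

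Of 63 levels by class, 2 moved by more than 1 SD with at least 1000 UMIs per cell, 6 with classes from clustering and 2 with the free RNA subtracted. Fibroblasts and venous EC had too few cells in a library to be tested with at least 1000 UMIs per cell (8 and 9) or at most 10% mitochondrial UMIs (7 and 7). With 2 libraries per group, a lone library left by leaving out another is assumed to vary like the rest.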

Other observations

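Classes with fewer than 10 cells in some library were not compared, and their class-total levels are given as values. In oligodendrocytes, the myelinating glia, Sgk1 was at 2523 and 2787 CPM in CSD 1 and CSD 2 (65 and 184 UMIs from 8 and 12 cells) and at 178 and 173 CPM in HC 1 and HC 2 (2 and 3 UMIs from 2 and 4 cells). In border-associated macrophages, found around vessels and in the meninges, Ddit4 was at 158 and 110 CPM in CSD (13 and 2 UMIs) with no UMI in the 46 and 16 cells of HC. Fkbp5 in these macrophages was at 231 and 165 CPM in CSD against 84.4 and 141 CPM in HC. Errfi1 in the same cells had 2 and 0 UMIs in CSD against 13 and 5 in HC, or 24.3, 0, 99.7 and 177 CPM, with only 5 cells in CSD 2. In oligodendrocyte precursors Ddit4 was at 88.7 and 69.1 CPM in CSD (9 and 8 UMIs) with no UMI in the 12 and 8 cells of HC.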
